A study of Saccharomyces cerevisiae with 3 samples.

Results

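Ends of PGK1 reporter RNA were mapped over the 150 nt before a boundary assumed to mark a stalling sequence. Ribosomes can queue behind a stall. The stretch is codons 270 to 319 of the reporter, 50 whole codons. It was set by position, with earlier results of these data known. It runs back from a boundary at the first base of codon 320, the point where a side calculation in the authors' deposited CGA table begins, and was divided into 5 footprints of 30 nt, each 10 codons long. Footprint 1 (codons 310 to 319) touches the boundary, and footprints 2 (300 to 309), 3 (290 to 299), 4 (280 to 289) and 5 (270 to 279) follow upstream. All 150 positions were listed in each of 3 tables, out of 855 listed positions for the stem-loop (SL) reporter, 683 for CGA and 661 for AAA. Codons count position 1 as the A of the ATG, an assumption not tested against any sequence. That the boundary marks the CGA repeat was not checked against a sequence, and it was assumed to hold for AAA as well. Where the stem loop sits was not among the facts at hand, so for SL the boundary is only a common ruler.

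The 3 libraries came from Saccharomyces cerevisiae, each a BY4741 strain with SKI2 deleted and a PGK1 reporter, which carried a stem loop, 12 CGA codons or 12 AAA codons. All were grown without uracil in 2% galactose and 2% raffinose to an optical density of about 0.8, and none was treated. Every strain lacked SKI2, so the effect of the deletion itself cannot be read from these libraries, and no reporter without a stalling sequence was analysed here. An adenylated oligonucleotide ligated to the RNA, together with a primer at position 585 of PGK1, fixed the ends that could be read. With 1 library per reporter there is no replicate: no test between reporters was possible, no p-value is given, and the 95% Wilson intervals cover counting error of reads only. Whether separate cultures would differ by as much as these reporters do was not tested.

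PGK1 encodes phosphoglycerate kinase, a glycolytic enzyme whose mRNA is heavily translated in yeast. When a ribosome halts on such an mRNA, those behind it run into it and queue, and collided ribosomes are known to trigger no-go decay, in which the mRNA is cut near the collided ribosomes. CGA is an arginine codon that yeast reads through a wobble pair, AAA runs encode lysine and are poorly translated, and a stable stem loop is a structural obstacle. The 5′ piece left by a cut is normally degraded from its new 3′ end by the cytoplasmic exosome with the Ski complex, of which Ski2 is the helicase.

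The stretch took in 2649605 of 4870458 SL ends, 4123036 of 7282449 CGA ends and 2746178 of 4154995 AAA ends. Its share was 54.4% of the SL table (interval 54.36 to 54.45), 56.6% of the CGA table (56.58 to 56.65) and 66.1% of the AAA table (66.05 to 66.14). The AAA reporter thus had the largest share there, and the other reporters differed in where the remainder lay. The 202 covered positions upstream of codon 270 held 30.6% of SL, 43.1% of CGA and 33.8% of AAA ends. From the boundary on lay 15.0% of SL, 0.245% of CGA and 0.129% of AAA ends. At the upstream edge, the last base of codon 269 carried 8770 SL, 6750 CGA and 9041 AAA ends, and the first base of codon 270 carried 12819, 10577 and 10602. At the other edge, the last base of codon 319 carried 55825 SL, 7129 CGA and 13819 AAA ends, and the first base of codon 320 carried 8968, 1553 and 130. Levels within a library are given below as shares of the stretch, so that these outer differences do not enter.

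Within the stretch the CGA ends lay furthest from the boundary. Their median was position 868, 90 nt before the boundary, with the middle part of the distribution from 108 to 66 nt before it (quartiles). The SL median lay 66 nt before the boundary (quartiles 97 and 44) and the AAA median 69 nt before it (quartiles 100 and 45). Mean density, not corrected for the unequal table totals, was 17664 ends per nt in SL, 27487 in CGA and 18308 in AAA.

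**Figure D1:**
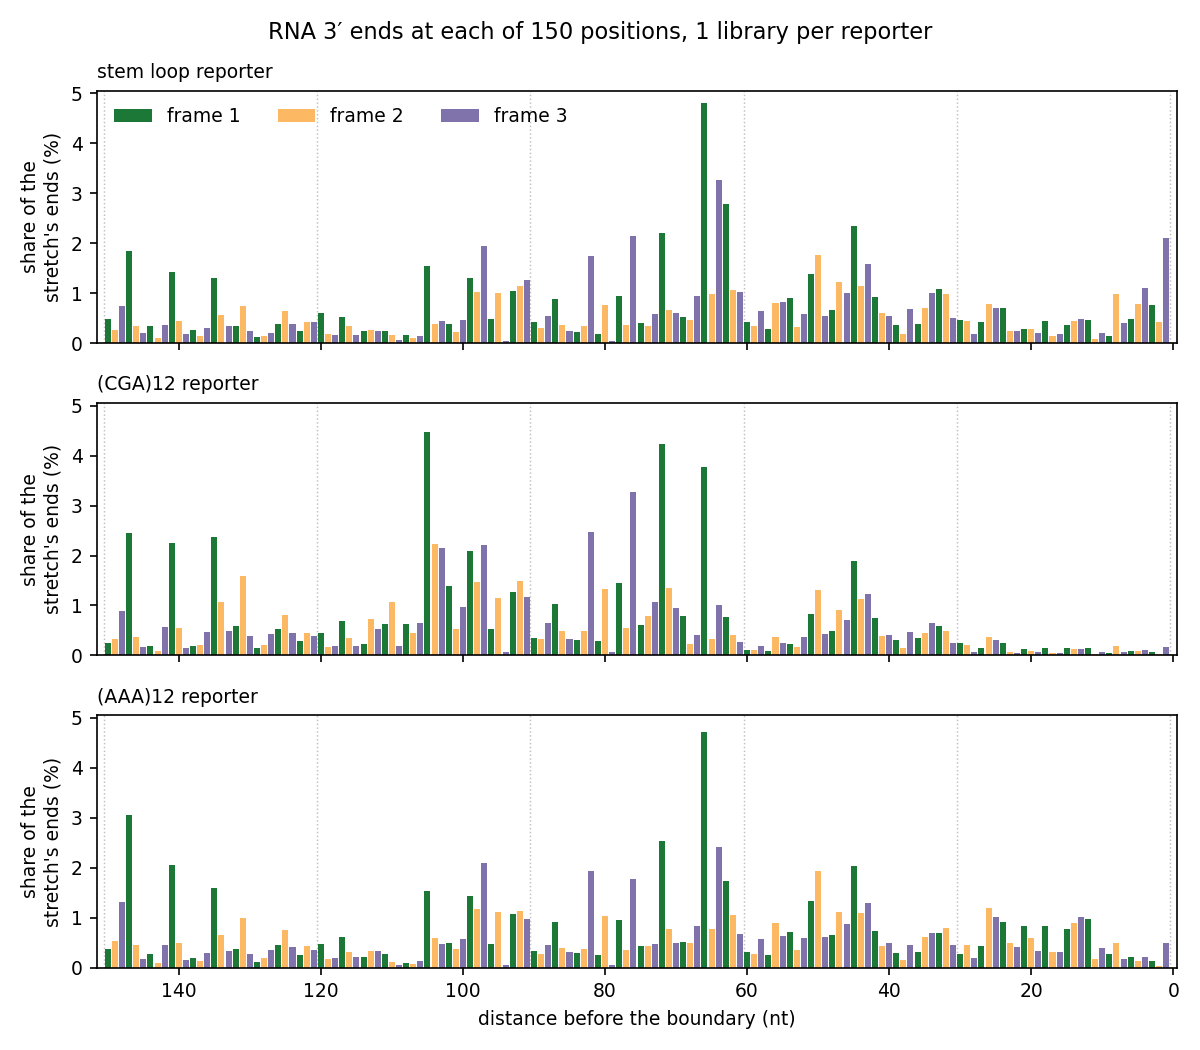
RNA 3′ ends at each of the 150 positions as a percent of the stretch's ends, 1 panel and 1 library per reporter, against the distance before the boundary in nt, with bars coloured by reading frame and dotted lines between 30-nt footprints. The tallest bar stands 66 nt before the boundary in the SL and AAA libraries (4.81% and 4.71%) and 105 nt before it in CGA (4.48%).

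By footprint, the CGA library differed from the others most in a fuller footprint 4 and a thin end next to the boundary. Footprint 5 held 14.0% of the SL, 19.4% of the CGA and 17.7% of the AAA ends of the stretch. Footprint 4 held 16.2%, 30.4% and 17.2% in the same order, so that here the CGA share was 1.87 times the SL share and 1.76 times the AAA share. Footprint 3 was close to even among reporters, with 30.1%, 30.4% and 28.1%, and was the fullest in each library, in CGA by 30.41% against 30.36%. With footprints of 28 or 25 nt, the CGA library was fullest in footprint 4 instead. In footprint 2 the order turned, with 24.7% of the SL, 16.1% of the CGA and 21.8% of the AAA ends. Footprint 1, next to the boundary, held 14.9% for SL (interval 14.89 to 14.98), 3.79% for CGA (3.77 to 3.81) and 15.1% for AAA (15.08 to 15.16). There the SL and AAA shares were 3.94 and 3.99 times the CGA share, and with 25-nt footprints the order of SL and AAA turned (12.64% and 12.56%). The CGA library thus kept 41719 and 41791 ends per nt in footprints 4 and 3, then 22086 and 5213 in footprints 2 and 1. The AAA library ran from 25757 ends per nt in footprint 3 to 19914 and 13843 in footprints 2 and 1.

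**Figure D2:**
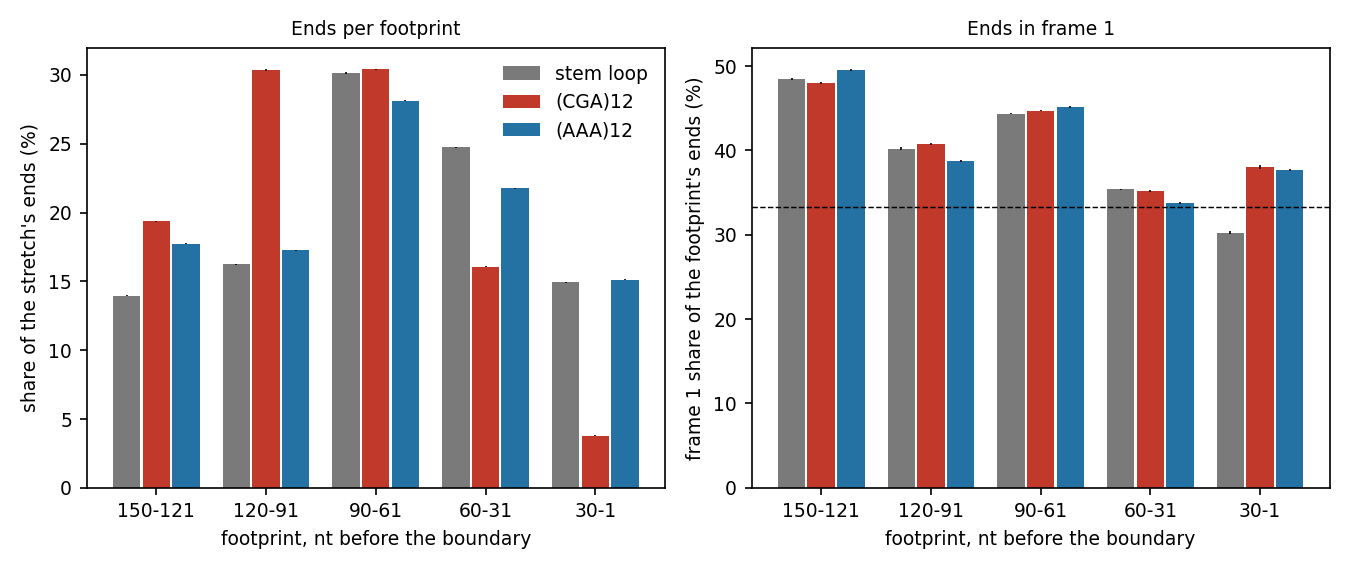
Left, the percent of the stretch's ends in each of the 5 footprints of 30 nt. Right, the percent of each footprint's ends in frame 1. Bars are 1 library each, error bars are 95% Wilson intervals of counting error, and the dashed line marks an even split over the frames. The CGA bar falls to 3.79% in the footprint nearest the boundary, and the frame 1 share of the SL library is lowest there, at 30.2%.

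The ends were concentrated on a minority of positions. In SL, counts ran from 1195 at position 879 through a median of 11825 to 127537 at position 892. In CGA, they ran from 1249 at position 947 through 16947 to 184592 at position 853. In AAA, they ran from 1264 at the middle base of codon 319 through 12832 to 129472 at position 892. The fullest position thus held 107, 148 and 102 times the emptiest one in the SL, CGA and AAA libraries. To collect 50% of the ends took the 31 fullest positions in SL, 24 in CGA and 32 in AAA. The 10 most frequent positions held 25.2%, 29.7% and 24.6% of the stretch's ends. Over codons 203 to 269 the 10 most frequent held 20.1%, 25.9% and 23.0% of that region's ends, over 201 positions and therefore not on the same footing.

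Position 892, in codon 298 and 66 nt before the boundary, was the fullest SL and AAA position and ranked 3 in CGA. It held 127537, 155350 and 129472 ends in the SL, CGA and AAA libraries, or 4.81%, 3.77% and 4.71% of the stretch. Its neighbours in the same part parted more strongly between reporters. Position 894 held 86351, 41247 and 66609 ends, and position 895 held 73871, 32141 and 47641. They ranked 2 and 3 in SL but 31 and 40 in CGA. Position 886, 6 nt before 892, went the other way with 58299, 174471 and 69773 ends, or 2.20%, 4.23% and 2.54% of the stretch. Position 882 held 56708, 135089 and 48911 ends, or 2.14%, 3.28% and 1.78% of the stretch. Position 876 held 46340, 101661 and 53122, or 1.75%, 2.47% and 1.93%.

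Position 853, in codon 285 and 105 nt before the boundary, led the CGA library. It held 41127, 184592 and 42009 ends, or 1.55%, 4.48% and 1.53% of the stretch, and ranked 13, 1 and 13. The SL and AAA shares at this position were close to each other, and the CGA share stood apart. Further upstream, position 811 led its footprint in every library, with 49011, 101382 and 84128 ends. There the AAA share was the highest, at 3.06% against 1.85% in SL and 2.46% in CGA. Position 861 led footprint 4 in the SL and AAA libraries, with 51478, 91477 and 57406 ends. Position 913 led footprint 2 in all 3 libraries, with 62114, 78220 and 56014. In footprint 1 the codon-repeat libraries were led by position 932, with 20540, 14891 and 32915 ends, while SL was led by the last base of codon 319.

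Across reporters, 5 positions were among the 10 most frequent in all 3 libraries: 811, 861, 882, 886 and 892. SL and AAA shared 8 of 10, CGA and AAA 7 of 10, and CGA and SL 5 of 10. The libraries are assumed to share the PGK1 sequence here and were made the same way.

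Reporters were next compared position by position and codon by codon. Ratios between libraries below compare shares of the covered ends upstream of the boundary (from the first covered position, just before codon 203, to codon 319), and both CGA comparisons share the CGA library, as both comparisons with SL share that one. Between CGA and AAA, 9 of 150 positions were at least 2-fold higher in CGA and 43 at least 2-fold lower. Over all 468 positions with at least 10 ends in both tables these directions took 5.56% and 16.7%, and over the 202 covered positions upstream of codon 270 they took 4.95% and 1.49%. The 468, like later counts over all positions or codons tested, include those past the boundary. There CGA held 0.245% and AAA 0.129% of their ends. The 9 higher positions all lay in footprint 4. Of the 43 lower ones, 27 lay in footprint 1, 9 in footprint 2 and 7 in footprint 3. The median log2 ratio over the stretch was -0.23, against -0.05 over all positions tested.

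Between CGA and SL, 13 positions were at least 2-fold higher in CGA and 50 at least 2-fold lower. With shares of the whole table as the measure, these counts were 20 and 42. Over all 477 positions tested the shares were 3.77% and 35.0%, a count that includes positions past the boundary, where SL held 15.0% of its ends. Upstream of codon 270 they were 2.48% and 0.990%. Of the 13 higher positions, 12 lay in footprint 4, and all 30 positions of footprint 1 were among the lower ones. Between AAA and SL, 12 positions were at least 2-fold higher in AAA and 7 at least 2-fold lower, against 3.13% and 21.9% of all 447 tested and 0.495% and 4.46% upstream of codon 270. In that comparison 11 of the 12 higher and all 7 lower positions lay in footprint 1 (the other higher one was position 809), so AAA and SL ran close together until the last footprint. The median log2 ratio over the stretch was -0.28 for CGA over SL and 0.09 for AAA over SL, against -0.30 and -0.24 over all positions tested.

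**Figure D3:**
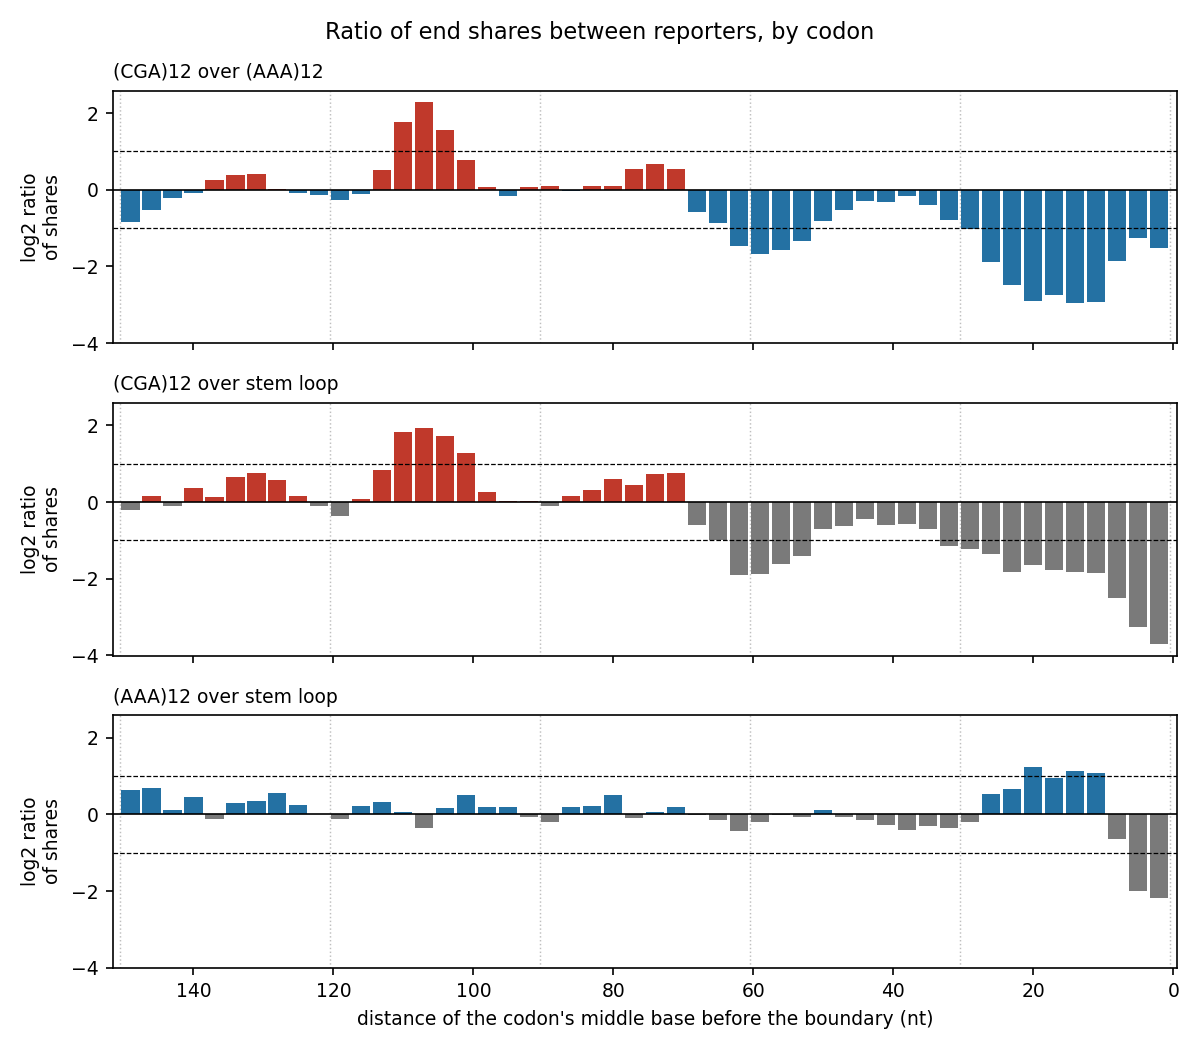
The log2 ratio of end shares (of the covered ends upstream of the boundary) for each of the 50 codons, by distance of the codon's middle base before the boundary in nt, for each pair of libraries. Bars take the colour of the library with the larger share and dashed lines mark 2-fold. CGA rises to 2.29 over AAA and 1.94 over SL at codon 284, and AAA over SL stays within 2-fold until codon 313.

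The CGA excess covered a short block. Codons 283 to 285 (positions 847 to 855, 111 to 103 nt before the boundary) were each at least 2-fold higher in CGA than in AAA, and codons 283 to 286 (847 to 858) than in SL. Runs of at least 3 codons past 2-fold were looked for after the data had been seen. Over 847 to 855 the CGA library held 514252 ends and the AAA library 92378, or 7.08% against 2.23% of the covered ends upstream of the boundary, a ratio of 3.18. Over 847 to 858 the CGA and SL counts were 632959 and 114056, a ratio of 3.16. Of all 195 codons with at least 10 ends in both libraries 5.13% were at least 2-fold higher in CGA than AAA, and in the stretch 3 of 50. Against SL these figures were 2.01% of 199 codons and 4 of 50.

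The middle codon of the block was little used by the other reporters. Codon 284 was the emptiest codon of the stretch in SL (10671 ends) and in AAA (8392 ends), and held 71900 ends in CGA, rank 21 of 50. Position 848 differed most between CGA and AAA in that direction, with 4445, 43867 and 3407 ends in the SL, CGA and AAA libraries. Its CGA share was 7.35 times the AAA share (log2 2.88) and 5.62 times the SL share (log2 2.49). The next largest CGA excesses over AAA were at positions 850 (5.69-fold), 851 (5.21-fold), 852 (4.15-fold) and 855 (3.92-fold). Position 855 held 11731, 88415 and 12868 ends. Codon 285 was the fullest CGA codon, with 364758 ends or 8.85% of the stretch, against 2.38% in SL and 2.59% in AAA.

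Downstream, CGA lay below the others in blocks separated by a partial return. Codons 294 to 296 still held 14.3% of the CGA ends of the stretch against 8.22% in SL and 8.25% in AAA. From codon 297 the log2 ratio of CGA was negative over both AAA and SL. Codons 299 to 302 (895 to 906, 63 to 52 nt before the boundary) were each at least 2-fold lower in CGA than in AAA, with 138905 CGA ends and 222579 AAA ends, or 1.91% against 5.36% of the covered ends upstream of the boundary. Against SL the block began 1 codon earlier, at codon 298. Codons 303 to 308, between these runs, came back to a log2 ratio of -0.46 over AAA and -0.58 over SL. A further run then reached to the boundary, from codon 310 against AAA and from codon 309 against SL. In total 14 of 50 codons were at least 2-fold lower in CGA than AAA and 16 of 50 than SL, against 22.1% and 44.2% of all codons tested, which include those past the boundary. None of the 67 codons from 203 to 269 was.

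The final footprint separated all 3 reporters. Over codons 311 to 316 (27 to 10 nt before the boundary) there were 176442 SL, 98518 CGA and 328914 AAA ends. They make up 6.66%, 2.39% and 12.0% of the stretch, so AAA was highest and CGA lowest. By shares of the covered ends upstream of the boundary, AAA was here 1.86 times SL (log2 0.90) and 5.84 times CGA. Over codons 317 to 319, the last 9 nt, the counts were 190148, 35887 and 60956, or 7.18%, 0.870% and 2.22%. The order thus changed within the footprint, and AAA over SL went from 0.90 to -1.64 on the log2 scale. The blocks are the runs of codons in which AAA lay above and then below SL, taken after the values were seen.

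Single positions showed the same turn. Position 945, 13 nt before the boundary, held 12705, 5253 and 28199 ends, and its AAA share was 9.40 times the CGA share and 2.21 times the SL share. Positions 936, 938, 944 and 946 followed, with AAA 8.67, 8.45, 8.06 and 7.78 times CGA. At the last base of codon 319 the SL share was 13.7 times the CGA share and 4.05 times the AAA share. Among codons, 3 of 50 were at least 2-fold higher in AAA than SL (313, 315 and 316) and 2 at least 2-fold lower (318 and 319), against 4.42% and 30.9% of 181 codons tested.

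The fullest codons were few. In SL, codons 298, 305, 299, 287 and 303 held 26.96% of the stretch. In CGA, codons 285, 296, 287, 294 and 298 held 31.5%, and in AAA codons 298, 287, 305, 303 and 296 held 24.8%. Codon 298 held 239813 SL, 210139 CGA and 217664 AAA ends. Codon 287 held 112882, 238313 and 129189. Codon 296 held 91369, 268982 and 104759. The fullest codon exceeded the emptiest 22.5-fold in SL, 37.4-fold in CGA and 25.9-fold in AAA.

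Reading frame was uneven, with frame 1, the codon's first base, ahead in each library over the whole stretch. Its share was 39.9% for SL (39.87 to 39.99), 42.4% for CGA (42.32 to 42.41) and 41.2% for AAA (41.18 to 41.29). The middle base took 26.9%, 28.4% and 28.7%, and the last base 33.1%, 29.3% and 30.03%. Over codons 203 to 269 frame 1 held 42.2%, 41.9% and 39.8%, so the stretch was below the upstream region in SL and above it in the others. With every codon weighted equally, the frame 1 share of the stretch was 38.5%, 38.1% and 37.9%, and the order of the reporters turned.

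The frame 1 share varied between footprints and did not change steadily with distance from the boundary. In each library footprint 5 had the highest share, and footprints 2 and 1 had lower shares than the others. In footprint 5 frame 1 held 48.5%, 47.9% and 49.5% of the SL, CGA and AAA ends. It held 40.2%, 40.8% and 38.8% in footprint 4, 44.4%, 44.7% and 45.2% in footprint 3, and 35.4%, 35.2% and 33.8% in footprint 2. In footprint 1 it held 30.2%, 38.0% and 37.7%, and the SL library was led there by frame 3 with 38.9%. In the AAA library frame 2 led footprint 2 with 35.4%. Over footprints 5 to 2 the frame 1 share was thus highest in the same footprint and lowest in the same footprint in all 3 libraries. Counted by codons, frames 1 and 3 were close. Frame 1 was the fullest base in 20 of 50 SL codons, 21 CGA codons and 19 AAA codons, and frame 3 in 19, 16 and 18. In footprint 5 frame 1 led 3 of 10 codons in each library while holding the largest share of ends. Positions 811, 817 and 823, all in frame 1, were the fullest there in CGA, with 101382, 92860 and 97643 ends. The same base led in all 3 libraries in 37 of 50 codons, namely frame 1 in 15, frame 2 in 9 and frame 3 in 13.

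The pattern of positions within a footprint was close between AAA and SL except in footprint 1, while CGA differed from both in footprints 4, 3 and 1 more than in 5 and 2. Over the 30 positions of a footprint, Pearson's r of log2 counts between AAA and SL was 0.96, 0.97, 0.98 and 0.97 in footprints 5 to 2, in that order, and 0.17 in footprint 1. For CGA and AAA it was 0.94, 0.76, 0.82, 0.86 and 0.67 in order, and for CGA and SL 0.92, 0.78, 0.76, 0.87 and 0.67. Within a footprint, moving ends to level a pair of profiles would take 23.8%, 21.6% and 21.7% of its ends for CGA and AAA in footprints 4, 3 and 1, and 25.2%, 27.4% and 25.5% for CGA and SL. For AAA and SL it would take 35.5% in footprint 1 and at most 9.59% in the others. These are descriptions over neighbouring positions that share a sequence, a library chemistry and, in part, a library. Moving a share of ends would make a pair of profiles over the stretch equal, and that share was 13.1% for AAA and SL, 24.2% for CGA and AAA and 28.8% for CGA and SL. Upstream of codon 270 it was 11.7%, 12.4% and 13.4%. Summed to whole footprints it was 4.96%, 17.0% and 19.8%, so that AAA and SL differed mainly within footprints.

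A spacing near 30 nt was seen in the ratios between libraries and not as the highest value in the counts. Counts of single libraries had their highest autocorrelation between 20 and 45 nt at 21 nt, with r of 0.21, 0.23 and 0.19 for SL, CGA and AAA, and had 0.10, 0.20 and 0.14 at 30 nt. In the log2 ratio of CGA to SL the highest value was at 30 nt (r = 0.53 over 120 pairs of positions), up from 0.38 at 16 nt and down to 0.13 at 45 nt. In AAA over SL it was also at 30 nt (0.26), up from -0.51 at 19 nt. In CGA over AAA it was at 33 nt (0.47), with 0.21 at 20 nt and 0.42 at 30 nt. With a linear trend subtracted, a setting added after the data were seen, the highest values stayed at these lags, but fell to 0.12 for CGA over SL and 0.15 for CGA over AAA, and were 0.22 for AAA over SL. The 3 ratios are made from 3 libraries and each library enters 2 of them, and neighbouring positions have similar ratios, so these values describe the profiles and test nothing.

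**Figure D4:**
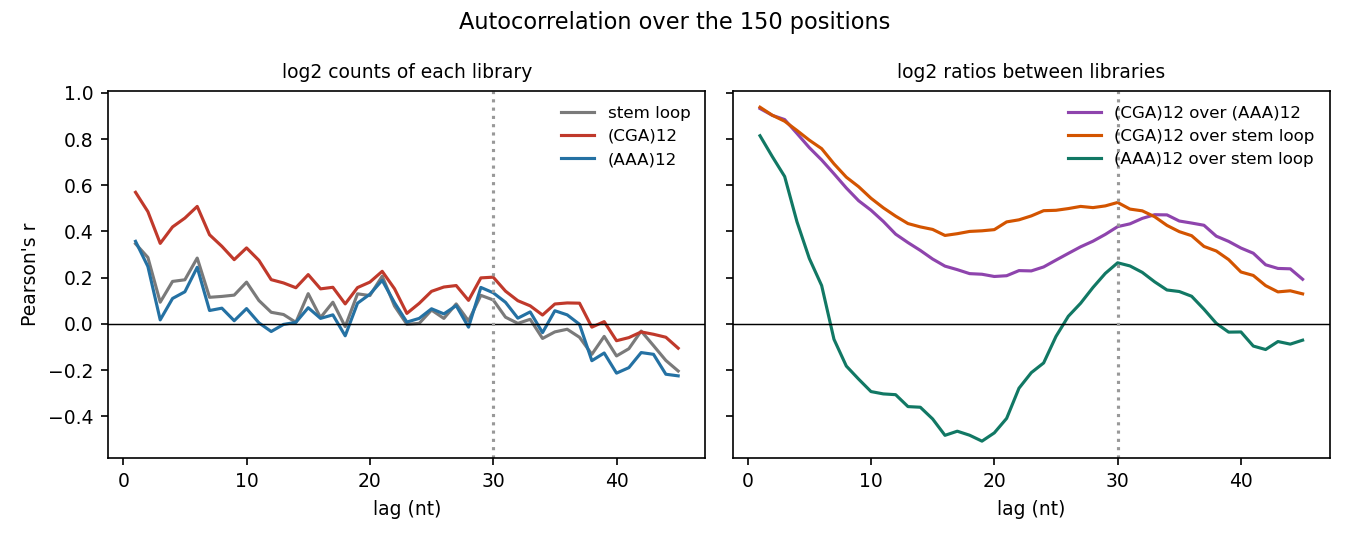
Pearson's r between positions a given number of nt apart, for the log2 counts of each library (left) and the log2 ratios between libraries (right), over the 150 positions, with a dotted line at 30 nt. Ratios with SL have their highest value from 20 to 45 nt at 30 nt (0.53 for CGA and 0.26 for AAA, or 0.12 and 0.22 with a linear trend subtracted, not drawn).

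The codons where CGA stood highest relative to AAA can be placed singly. Local maxima, the highest of 9 neighbouring codons, fell at codons 276, 284, 295 and 307, with log2 ratios of 0.40, 2.29, 0.66 and -0.17. Their middle bases lay 131, 107, 74 and 38 nt before the boundary, so that steps were 24, 33 and 36 nt. Over SL the CGA maxima fell at codons 276, 284, 296 and 305, in steps of 24, 36 and 27 nt, with log2 ratios of 0.76, 1.94, 0.75 and -0.43. The AAA maxima over SL fell at codons 271, 277, 286, 293, 303 and 313, in steps of 18, 27, 21, 30 and 30 nt, and only the last, 1.24, was past 2-fold. The window of 9 codons, or 27 nt, reaches 4 codons to either side, so such maxima must lie more than 4 codons apart.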

How the data were processed

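RNA 3′ ends were counted in 1 library per reporter. Each table gives, per the file headers, position relative to the ATG, reads and frame, and the deposited reads are raw counts (whole, with unequal totals of 4870458 for SL, 7282449 for CGA and 4154995 for AAA). Sheet names in the sample descriptions tied tables to samples. The submitters' processing notes list bedtools, Novoalign, SAMtools 1.13 and cutadapt 1.12. For the settings, reference and build: not given in the sources used here. No molecular identifiers are mentioned, so copies of 1 molecule count separately.

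Unlisted positions count 0. Where a frame was deposited, it disagreed in 0 lines with position counted in threes from 1. The frame was missing in 185 SL and 13 CGA lines. The 9 AAA lines without a position were left out, also from the AAA total. Shares carry 95% Wilson intervals. Ratios of shares needed at least 10 ends in both libraries and were called at 2-fold. Autocorrelation used log2 counts. Functions for log2 ratios, 2-fold calls, frame shares, medians and the share of ends to move were tested on simulated data. Those for autocorrelation, codon runs and local maxima were not. Members and lists were chosen with earlier results of these data known. Named positions are the fullest of each footprint, the 5 fullest per library, both edges, and the 5 largest folds each way between CGA and AAA with at least 1000 ends in both. Positions among the 10 most frequent of 2 libraries could also be named. Named codons are the 5 fullest per library. Positions 809 and 823, the emptiest positions, codon blocks and local maxima were named after their values were seen. Alternatives were other footprint lengths, weights, minimums, denominators and a shift by 1 nt. Software was matplotlib 3.10.9, scipy 1.17.1, pandas 2.3.3 and numpy 2.4.6 under Python 3.11.15.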

Additional observations from a re-analysis of the deposited data

How the results depend on the processing

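Among 117 values from other settings, 61 left the counting interval of the main value and 56 did not (for counts the margin was 1.5 times, for lags 1.1 times). The order of reporters turned in the frame 1 share. With 25-nt footprints it also turned between SL and AAA in the last footprint and between SL and CGA in the fullest one. No other order of reporters turned in the settings run. The order of pairs turned in counts of positions past 2-fold. By shares of the table, 42 positions were at least 2-fold lower for CGA over SL and 43 for CGA over AAA. The main counts were 50 and 43. By shares of the stretch, 11 were at least 2-fold higher for AAA over SL and 12 for CGA over AAA. Here the main counts were 12 and 9. Counting intervals are narrow at these depths, so small moves fall outside them. The 12 lag values and the 6 counts on the stretch's own ends were added after seeing the data. Treating positions with fewer than 10 ends as empty moved none of 21 values. No position of the stretch had so few ends, so only shares of the table could have changed. Likewise a minimum of 100 ends in both libraries could not change its 6 counts. These settings therefore say nothing about how stable the values within the stretch are. Values follow in the order SL, CGA, AAA, and for pairs CGA and AAA, CGA and SL, AAA and SL; why values moved, beyond what each setting removes, was not tested. Without the fullest position of each library the stretch held 53.18%, 55.49% and 65.00% of the table, the last footprint 15.69%, 3.97% and 15.87% of the stretch, the fullest footprint 26.59%, 31.83% and 24.58%, frame 1 36.89%, 39.66% and 38.33%, the 10 most frequent positions 23.26%, 28.69% and 22.67%, the median lay 64, 86 and 72 nt before the boundary, and the share to move was 26.11%, 30.87% and 13.65%. With all boundaries moved down by 1 nt, the stretch ran from the last base of codon 269 to the middle base of codon 319. It then held 53.44% (SL) and 65.98% (AAA) of the table. The last footprint held 13.58% (SL) and 3.87% (CGA), the fullest 30.91%, 31.31% and 28.48%, and the 10 most frequent positions 25.30% (SL). The median lay 65 (SL) and 89 nt (CGA) before the moved boundary. The share to move was 24.16%, 28.06% and 12.37%. Frame 1 held 40.65% (SL) and 41.30% (AAA), with the frame of each position kept as listed. These frame 1 shares therefore do not test a numbering that is off by 1 nt, under which another base of the codon would lead. With 28-nt footprints the last held 14.02%, 3.33% and 14.39% and the fullest 29.05%, 30.52% and 26.88%. With 25-nt footprints the last held 12.64%, 2.74% and 12.56% and the fullest 27.12%, 25.84% and 24.36%. At both of these lengths the fullest CGA footprint was footprint 4, counted from the boundary. Frame 1 held 38.49%, 38.10% and 37.89% with codons weighted equally, and 40.29%, 41.17% and 39.84% without the outer footprints. The share to move was 23.79%, 27.81% and 12.03% by codon and 17.01%, 19.80% and 4.96% by footprint. With shares of the table total, 20 positions were at least 2-fold higher in CGA than SL, against 13. No paired analysis was possible because reporters have 1 library each, and for the same reason no library could be left out. The emptiest position of the stretch held 1195 ends, so counting error is small, but copies of 1 molecule count separately, and the single library per reporter limits every comparison.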

Other observations

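The spacing of the ratios was followed beyond the values above, with settings chosen after the data were seen. The lag of the highest autocorrelation between 20 and 45 nt stayed at 30 nt for CGA over SL and AAA over SL over all covered positions upstream of the boundary (r = 0.44 and 0.34), without footprint 1 (0.34 and 0.41), and with a linear trend subtracted. With a running mean of 3 positions it was 29 and 30 nt. For CGA over AAA it was 33 nt in these settings, except 30 nt without footprint 1 (0.26).

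The lowest position was the same in all 3 libraries in footprints 5, 4 and 3, and not in footprints 2 and 1. Position 879 held 1195, 2672 and 1524 ends for SL, CGA and AAA and was the lowest of its footprint in each. Position 864 (1366, 2561 and 1790 ends) and position 815 (2718, 4088 and 2690 ends) were likewise the lowest of theirs in each library. In footprint 2 position 920 was lowest for SL and AAA (5012 and 4053 ends) and position 901 for CGA (3695 ends). In footprint 1 position 947 was lowest in the SL and CGA libraries (2247 and 1249 ends) and the middle base of codon 319 in the AAA library (1264 ends). The latter held 11084 SL and 1529 CGA ends, and position 947 held 5017 AAA ends.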
